A study of Mus musculus with 12 samples.

Results

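Interferon-stimulated genes are the genes that cells switch on when interferon reaches them. A set of 39 of them, listed by gene symbol, was examined in alveolar macrophages of mice that had breathed ozone. All 39 members were found among the 55291 gene symbols of the deposited expression table, and all 39 were tested. The rule selects members by symbol and uses no value of the table, although the list was drawn up with earlier results of these data known. RNA had been sequenced from alveolar macrophages sorted by flow cytometry from the lungs of female C57BL6/NJ mice, used between 8 and 11 weeks of age. The ozone group (6 mice) had breathed 0.8 ppm ozone for 4 h daily over 4 consecutive days, and the filtered-air group (6 mice) had breathed filtered air on the same schedule. Lungs were taken 3 days after the last exposure, so that the comparison concerns cells after the exposure had ended. Strain and sex were the same in both groups, the labels name no genetic change, and each library came from a different mouse. Cells were sorted in 2 batches with 3 mice of each group in each batch.

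Type I interferon binds a receptor on the cell surface, and kinases bound to the receptor activate STAT2. It joins IRF9 in a complex, ISGF3, which binds a DNA element called the interferon-stimulated response element (ISRE) near its target genes. Interferon gamma acts through another element, the gamma-activated site (GAS), and induces IRF1 and the guanylate-binding proteins. The products bind viral RNA, degrade it, block virus entry and budding, or sense foreign nucleic acid, and some of them raise or end the response itself. Alveolar macrophages are a known source of type I interferon during respiratory virus infection.

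Promoter sequences of 30 members were present in the RefSeq promoter table for GRCm38.p6, the mm10 build, as windows from 250 bases before to 50 bases after the transcript start. The ISRE letters, GAAA, any 2 bases and GAAA, searched on both strands, occurred in 20 of the 37 promoter windows of members (54.1%), against 3.44% of all 32851 windows in the table. By gene, 19 of the 30 members held them. The GAS letters, TTC, any 3 bases and GAA, which read the same on both strands, occurred in 10 of the 37 windows (27.0%), against 8.30% of all windows. The letters of the 2 motifs were searched separately and could overlap. A match is a description of the letters and no evidence of binding. The 180 bases before the start are shown for 6 members, with ISRE and GAS matches in capitals. Isg15, Ifit3 and Rsad2 are shown because they are among the members that varied most closely with the others over mice, Oas1a and Gbp5 because they had the smallest p-values for ozone, and Irf1 as a member with a GAS match and no ISRE match that varied with the others in ozone mice and not in filtered-air mice.
Isg15 promoter, chr4:156200819-156200998, minus strand: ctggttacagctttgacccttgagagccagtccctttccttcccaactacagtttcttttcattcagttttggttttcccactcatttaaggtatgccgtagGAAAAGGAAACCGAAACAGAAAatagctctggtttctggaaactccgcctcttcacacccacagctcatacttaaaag
Ifit3 promoter, chr19:34583349-34583528, plus strand: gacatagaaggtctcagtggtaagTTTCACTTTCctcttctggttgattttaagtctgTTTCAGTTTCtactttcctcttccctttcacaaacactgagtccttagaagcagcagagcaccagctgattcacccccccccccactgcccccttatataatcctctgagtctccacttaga
Rsad2 promoter, chr12:26456453-26456632, minus strand: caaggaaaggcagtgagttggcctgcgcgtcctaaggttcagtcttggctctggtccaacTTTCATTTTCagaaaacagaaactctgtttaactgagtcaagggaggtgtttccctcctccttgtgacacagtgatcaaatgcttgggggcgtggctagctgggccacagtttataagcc
Oas1a promoter, chr5:120907526-120907705, minus strand: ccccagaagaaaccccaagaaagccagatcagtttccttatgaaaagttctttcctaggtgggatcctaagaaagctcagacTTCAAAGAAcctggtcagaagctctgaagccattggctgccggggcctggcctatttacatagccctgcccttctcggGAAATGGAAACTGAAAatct
Gbp5 promoter, chr3:142496754-142496933, plus strand: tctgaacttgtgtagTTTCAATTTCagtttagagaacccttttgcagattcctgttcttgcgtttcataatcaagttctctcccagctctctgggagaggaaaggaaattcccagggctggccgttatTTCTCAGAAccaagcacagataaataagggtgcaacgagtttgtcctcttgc
Irf1 promoter, chr11:53769834-53770013, plus strand: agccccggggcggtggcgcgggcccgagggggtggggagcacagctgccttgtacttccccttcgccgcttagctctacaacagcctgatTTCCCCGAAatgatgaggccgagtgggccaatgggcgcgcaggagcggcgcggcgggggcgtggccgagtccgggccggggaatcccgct
In Isg15 3 overlapping ISRE matches began at -78, -72 and -66 relative to the start. Ifit3 held 2 separate matches at -156 and -122, and Rsad2 held 1 at -120. The matches of Oas1a at -20 and -14 overlapped each other and lay closest to the start among the 6 members shown. Irf7, which is itself a target of ISGF3, had neither set of letters in its window, which says only that these letters are not in those bases.

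Each value in the table is a variance-stabilized log2-scale level minus the filtered-air mean of the gene, so filtered air averages 0 and the abundance of a gene cannot be read. A difference between groups is close to a log2 fold change for genes with many reads and smaller than that for genes with few. Of 25444 genes that varied, each library had between 19475 and 20438 above the value shared by mice without a read, and total read numbers are unknown. RNA integrity numbers lay between 8.9 and 9.7. All 12 alveolar macrophage markers examined, among them Siglecf, Marco and Pparg, lay above the no-read value in all 12 mice. So did all 7 T cell, 6 B cell, 6 natural killer cell and 6 monocyte markers. Of 7 neutrophil markers 6 lay above it in all 12 mice, and the other one, Ly6g, lay above the no-read value in 1 of 12. A no-read value is recognised only where mice of a batch share it, so a single mouse without reads in its batch would be missed.

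No shift of the interferon-stimulated genes after ozone was detectable in either direction. In limma with Benjamini-Hochberg adjustment over all 19633 genes tested, 0 of the 39 members passed an adjusted p of 0.05, against 4.25% of all genes. Of all genes 2.41% passed as higher and 1.84% as lower, beside 0 members in each direction. Without adjustment 5 members had a p under 0.05 (3 higher, 2 lower), against 16.7% of all genes. The difference was above 0 for 21 members and below 0 for 18, with a median of 0.0048, beside a median of -0.0033 over all genes. This balance rested on single mice: without ozone mouse 6, 13 members lay above 0 and 26 below (median -0.040), and without filtered-air mouse 5, 26 lay above and 13 below (median 0.035). The median absolute difference was 0.039 for the members and 0.046 for all genes. The ozone and filtered-air values overlapped in every one of the 39 members, while the groups were separate in 3.53% of all genes. Markers of B cells (6 of 6), natural killer cells (6 of 6) and endothelium (6 of 6) lay below 0 after ozone, with medians of -0.23, -0.088 and -0.12, and 0 of them passed. Below 0 were also 4 of 6 monocyte, 5 of 6 conventional dendritic cell, 6 of 8 plasmacytoid dendritic cell and 5 of 7 T cell markers. The medians of these lists were -0.13, -0.061, -0.053 and -0.025, and 0 of their markers passed. All 5 erythroid markers tested lay above 0 (median 0.14), as did 4 of 6 fibroblast markers, and 0 of these passed. Of the markers of other cells the neutrophil gene Cxcr2 rose by 0.79 and the epithelial gene Epcam fell by 0.55 (limma's adjusted p = 0.000451 and 0.00620). Their lists went both ways: of 6 neutrophil markers tested 3 lay above 0 and 3 below, and of 7 epithelial markers 2 lay above and 5 below, with no other one passing. Of 12 alveolar macrophage markers 6 lay above 0 and 6 below (median 0.0072), and 3 passed, beside 4.25% of all genes. Car4 rose by 0.32 and Chil3 by 0.25, and Krt79 fell by 0.35 (limma's adjusted p = 0.0460, 0.0320 and 0.0177). The part of these cells in the members' values was not tested. In these bulk libraries fewer cells of a type and less RNA per cell cannot be told apart.

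The precision of the comparison can be read from the intervals. Among genes that passed the test the median absolute difference was 0.25. For 32 of the 39 members the 95% interval of the difference lay inside that size on both sides. The other 7 were Gbp5, Ifitm3, Irf7, Irf1, Oas2, Mx1 and Rsad2, whose intervals reached between -0.44 for Ifitm3 and 0.38 for Gbp5. For these 7 a difference as large as that of a typical passing gene was within the interval. The smallest absolute difference among passing genes was 0.121. Only Isg20, Ifi35 and Trim30a had intervals inside that size on both sides. For all other members a difference of that size was within the interval.

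**Figure D1:**
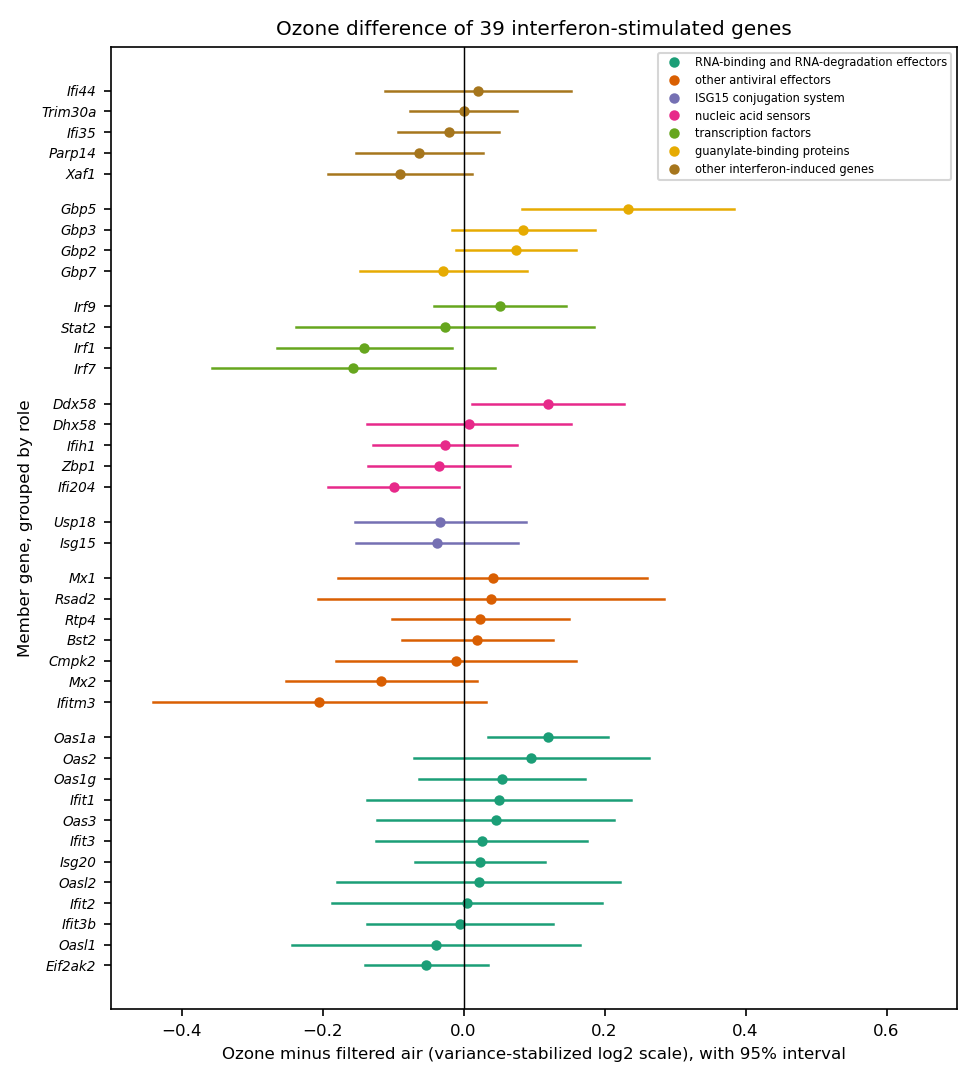
Difference of each of the 39 members between ozone and filtered air (points) with its 95% interval from limma (lines) on the variance-stabilized log2 scale, coloured by role. Differences lie between -0.20 for Ifitm3 and 0.23 for Gbp5, and most intervals cross 0.

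Among 12 members whose products bind or degrade RNA, 9 lay above 0 and 3 below, and 0 passed the test. The IFIT proteins grip viral RNA and block its translation, and their genes lie side by side at chr19:34550694-34650009. Their ozone differences were 0.050 for Ifit1, 0.0048 for Ifit2, 0.026 for Ifit3 and -0.0047 for Ifit3b. In all 4 genes filtered-air mouse 5 was the highest of its group and ozone mouse 6 the highest of the ozone group. Ifit3 and Ifit3b cannot be cleanly told apart, since 51.2% of the 50-base stretches of the Ifit3 transcript also occur in Ifit3b. The OAS enzymes make a second messenger that activates the ribonuclease RNase L, and the OAS and OASL genes of the set lie on chromosome 5.

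Oas1a had the smallest p-value of the role. Its values in filtered air were -0.066 at the lowest, -0.0037 at the median and 0.088 at the highest, and after ozone 0.040, 0.12 and 0.19. All 6 ozone mice lay above the filtered-air mean, but ozone mice 2 and 3 lay below filtered-air mouse 4. The difference was 0.12 (SE 0.040, limma's adjusted p = 0.119). Oas1a and Oas1g are near copies, with 57.6% of the 50-base stretches of Oas1a found in Oas1g, so reads may have been split between them. The difference of Oas1g was 0.054 (SE 0.055). Oasl1, a translational inhibitor of Irf7, had the widest spread of the role, from -0.24 through a median of -0.060 to 0.38 in filtered air and from -0.18 through -0.091 to 0.16 after ozone. A single filtered-air mouse, number 5, lay above all 6 ozone mice, and the difference was -0.039 (SE 0.095). The remaining members of the role lay between -0.053 for Eif2ak2, the kinase PKR that stops translation on double-stranded RNA, and 0.096 for Oas2. Between them were Oas3 at 0.046, the exonuclease Isg20 at 0.023 and Oasl2 at 0.021.

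Among 7 other antiviral effectors, 4 lay above 0, 3 below and 0 passed. Ifitm3, a membrane protein that blocks fusion of viruses with endosomes, had the lowest difference of all members, -0.20 (SE 0.11, limma's adjusted p = 0.388). Its values ran from -0.26 through a median of -0.026 to 0.45 in filtered air and from -0.42 through -0.18 to -0.026 after ozone. All 6 ozone mice lay below the filtered-air mean, and the groups overlapped widely. The highest value belonged to filtered-air mouse 4, and without that mouse the difference was -0.11. The same mouse had the highest mean of the series for 6 monocyte markers (0.39), 6 B cell markers (0.38) and 6 natural killer cell markers (0.38). The part of those cells in the Ifitm3 value was not tested.

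Rsad2, the radical SAM enzyme viperin that makes a chain-terminating nucleotide, had the largest within-group spread of all members (pooled SD 0.23). It ran from -0.14 through -0.064 to 0.35 in filtered air and from -0.27 through -0.053 to 0.49 after ozone. Filtered-air mouse 5 and ozone mice 5 and 6 stood high, the other 9 mice lay at or below 0.018, and the group difference was 0.038 (SE 0.11). Cmpk2, its neighbour on chromosome 12 that supplies nucleotides to viperin, had a difference of -0.011. The dynamin-like GTPases Mx1 and Mx2 had differences of 0.041 and -0.12. The differences of Bst2, the tetherin that holds budding virions, and of Rtp4 were 0.020 and 0.024.

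Isg15, a ubiquitin-like protein attached to other proteins, and Usp18, the protease that removes it and dampens the interferon receptor, both lay slightly below 0. Isg15 ran from -0.13 through -0.0040 to 0.13 in filtered air and from -0.16 through -0.058 to 0.14 after ozone, a difference of -0.038 (SE 0.053). Usp18 ran from -0.091 through 0.014 to 0.074 in filtered air and from -0.15 through -0.091 to 0.16 after ozone, a difference of -0.033 (SE 0.057). In both genes 4 ozone mice lay below the filtered-air median and mouse 5 far above it, and in Usp18 mouse 6 was higher still. Leaving out single mice moved the difference of Isg15 between -0.077 (without ozone mouse 5) and -0.0093 (without filtered-air mouse 5), and that of Usp18 between -0.076 (without ozone mouse 6) and -0.0068 (without ozone mouse 2).

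Of 5 nucleic acid sensors, 2 lay above 0 and 3 below, with 0 passing. Ddx58, which encodes the RNA sensor RIG-I, ran from -0.11 through -0.031 to 0.15 in filtered air and from 0.030 through 0.10 to 0.24 after ozone. All 6 ozone mice lay above the filtered-air mean, but filtered-air mouse 5 was higher than all ozone mice except number 6. The difference was 0.12 (SE 0.050, limma's adjusted p = 0.235). Ifi204, a sensor of DNA, had a difference of -0.099 (SE 0.043, limma's adjusted p = 0.259), with 6 of 6 ozone mice below the filtered-air mean. Of its 50-base stretches 30.2% also occur in other genes, mostly Ifi211. Dhx58, the regulator LGP2, ran from -0.14 through 0.0030 to 0.15 in filtered air and from -0.22 through -0.010 to 0.22 after ozone, and its difference was 0.0075 (SE 0.067). The RNA sensor Ifih1 (MDA5) and the Z-nucleic acid sensor Zbp1 had differences of -0.027 and -0.035.

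Of the 4 transcription factors of the set 1 lay above 0 and 3 below, with 0 passing. Irf1, a factor induced by interferon gamma, ran from -0.075 through 0.018 to 0.093 in filtered air and from -0.29 through -0.17 to 0.031 after ozone. Ozone mice 1 to 4 lay below every filtered-air mouse, and ozone mice 5 and 6 lay within the filtered-air range. The difference was -0.14 (SE 0.058, limma's adjusted p = 0.226). Irf7, the factor that amplifies type I interferon production, ran from -0.19 through -0.051 to 0.23 in filtered air and from -0.36 through -0.22 to 0.21 after ozone. Again ozone mice 1 to 4 lay below every filtered-air mouse, while ozone mouse 6 lay near the top of the filtered-air range. The difference of -0.16 (SE 0.094, limma's adjusted p = 0.453) was -0.24 without ozone mouse 6 (adjusted p 0.102) and -0.11 without filtered-air mouse 5 (adjusted p 0.657), short of the threshold in each case. Stat2 ran from -0.19 through -0.0071 to 0.18 in filtered air and from -0.42 through 0.058 to 0.20 after ozone, with ozone mouse 1 lowest, and its difference was -0.026 (SE 0.099). Irf9, the DNA-binding part of ISGF3, had a difference of 0.052 (SE 0.044).

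**Figure D2:**
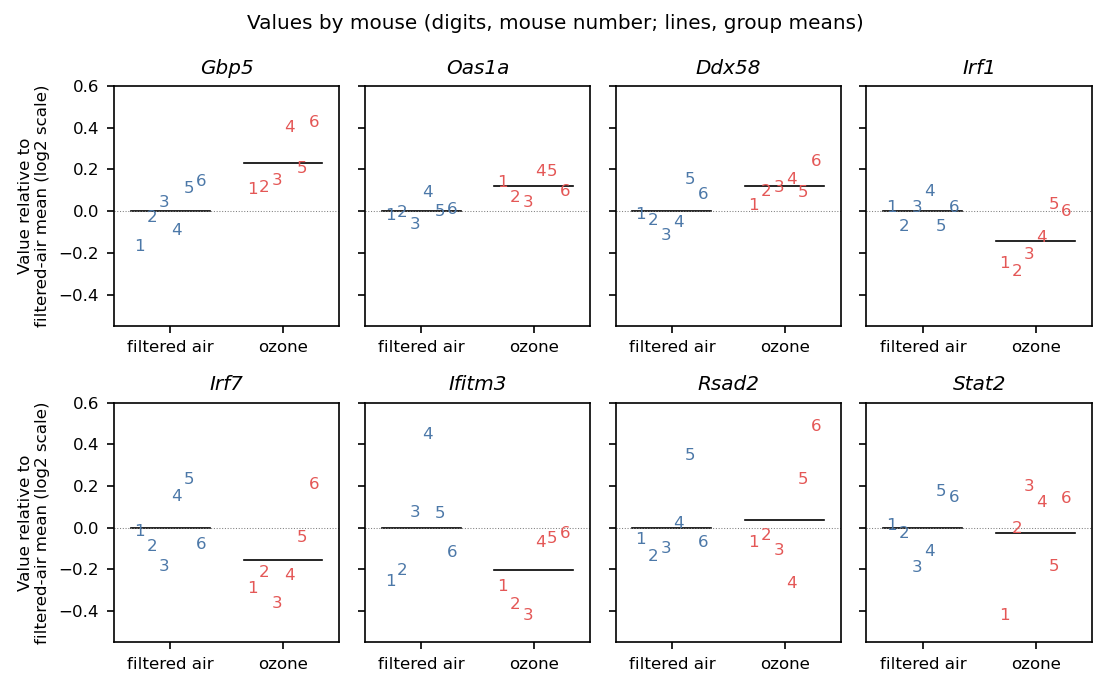
Values of 8 members by mouse on the variance-stabilized log2 scale relative to the filtered-air mean; digits are mouse numbers within a group, horizontal lines are group means and the dotted line is 0. Groups overlap in all 8 genes, and ozone mouse 6 is the highest ozone mouse in Gbp5, Ddx58, Irf7, Ifitm3 and Rsad2.

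The guanylate-binding proteins coat vacuoles and bacteria inside cells, and 4 of their genes lie at chr3:142493978-142638008. Gbp5 had the largest difference of all members and the smallest p-value, 0.23 (SE 0.070, limma's adjusted p = 0.0832). It ran from -0.17 through 0.0040 to 0.14 in filtered air and from 0.10 through 0.18 to 0.42 after ozone. All 6 ozone mice lay above the filtered-air mean, and 4 of them lay above every filtered-air mouse. Gbp3 (0.085, SE 0.047) and Gbp2 (0.074, SE 0.040) lay above 0 with wider overlap. Gbp7 lay at -0.029 (SE 0.055), and 12.8% of its 50-base stretches occur in other genes.

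Of 5 further interferon-induced genes, 2 lay above 0, 3 below, and 0 passed. Xaf1, which promotes apoptosis, ran from -0.069 through -0.0040 to 0.074 in filtered air and from -0.20 through -0.10 to 0.048 after ozone, a difference of -0.090 (SE 0.048). Ifi44 ran from -0.10 through -0.010 to 0.14 and from -0.10 through -0.029 to 0.26, with ozone mouse 5 highest, and its difference was 0.020 (SE 0.062). The mono-ADP-ribosyltransferase Parp14 lay at -0.063 and Ifi35 at -0.021. Trim30a, a ubiquitin ligase that restrains inflammatory signalling, lay at 7.25e-05.

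The differences were compared between the flow-sort batches. Within batch 1 and within batch 2 the sign was the same for 28 of the 39 members, against 63.7% of all genes tested. Gbp5 differed by 0.25 in batch 1 and by 0.22 in batch 2, and Irf1 by -0.11 and -0.17. In limma's test of the interaction of batch and exposure 0 members passed the adjusted threshold, against 0% of all genes, and 0 members had an unadjusted p under 0.05, against 2.60% of all genes.

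Within each group the members varied more from mouse to mouse than most genes, and many of them varied together. The pooled within-group SD had a median of 0.10 over the members and of 0.077 over all genes tested. Of the members 30 exceeded the median SD of all genes, and 12 lay above its 90th percentile, among them Rsad2, Ifitm3, Mx1, Stat2, Oasl1 and Irf7. The SD was larger after ozone than in filtered air for 28 of the 39 members, and for 51.4% of all genes.

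Over the 6 filtered-air mice, the mean Pearson r of the 741 pairs of members was 0.28, and 74.5% of pairs were positive. Over the 6 ozone mice the mean r was 0.39, and 79.9% of pairs were positive. Over all pairs of genes tested the mean r was 7.60e-05 in filtered air and 0.00068 after ozone, with 50.0% of pairs positive in both groups. A pairwise r above 0.8 was reached by 8.23% of member pairs in filtered air and by 18.4% after ozone, against 3.55% and 3.97% of all pairs. Pairs share mice and libraries and are not independent, so these values are given as a description. Without filtered-air mouse 5 the mean r of the members in filtered air was 0.14. Without ozone mouse 6 that of the ozone group was 0.32. Whether the 2 groups differ in mean r was not tested.

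**Figure D3:**
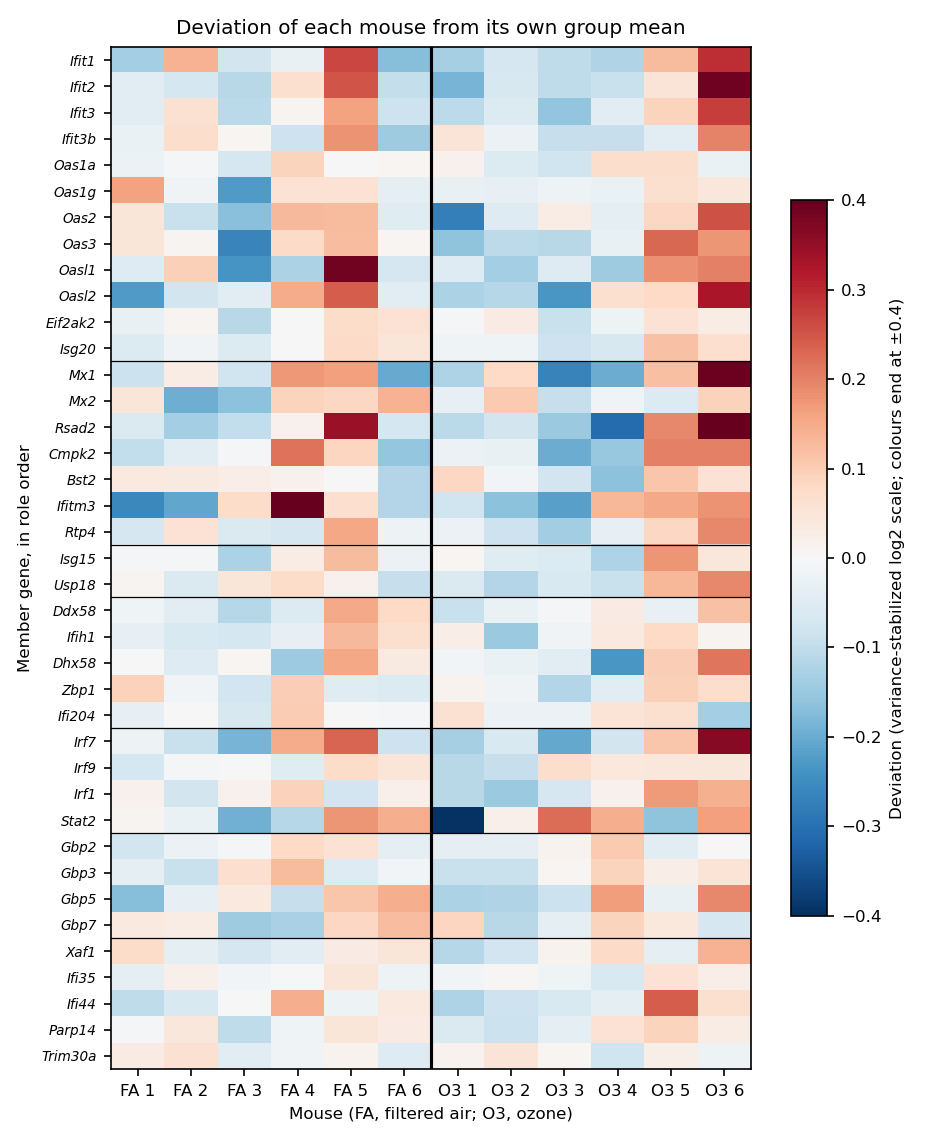
Deviation of each mouse (columns; FA, filtered air; O3, ozone) from the mean of its own group for each of the 39 members (rows, in role order), on the variance-stabilized log2 scale, with colours ending at 0.4 in either direction. Filtered-air mouse 5 and ozone mice 5 and 6 are above their group mean in 34, 32 and 34 members.

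Particular mice were high or low across the set. The mean of the 39 members in filtered-air mice 1 to 6 was -0.030, -0.022, -0.071, 0.037, 0.11 and -0.018. In ozone mice 1 to 6 it was -0.067, -0.055, -0.071, -0.029, 0.078 and 0.14. The group means were 0 and -0.00075 (SD 0.062 and 0.088, n = 6 each). Filtered-air mouse 5 was the highest of its group in 20 of the 39 members, against 17.7% of all genes, and filtered-air mouse 3 the lowest in 19, against 16.7%. Ozone mouse 6 was the highest of its group in 18 members, against 23.2% of all genes, and ozone mouse 5 in 13, against 14.2%. Ozone mouse 6 was also the lowest of its group in 23.6% of all genes, more than any other ozone mouse, so that it stood apart in both directions.

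The 3 mice with the highest member means came from both sort batches. Filtered-air mouse 5 and ozone mouse 5 were sorted in batch 1 and ozone mouse 6 in batch 2, with RNA integrity numbers of 9.6, 9.7 and 9.5, in the upper part of the range of the series. The genes above the no-read value numbered 20100 in filtered-air mouse 5, 20438 in ozone mouse 5, the most of the series, and 19475 in ozone mouse 6, the fewest.

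Markers of T cells and of several other cell types were high in some of the same mice. The mean of 7 T cell markers, Cd3e, Cd3d, Cd3g, Trac, Cd2, Lck and Lef1, in filtered-air mice 1 to 6 was -0.23, -0.24, -0.074, 0.10, 0.25 and 0.19. In ozone mice 1 to 6 it was -0.20, -0.22, -0.12, 0.0049, 0.23 and 0.22. The mouse with the highest member mean in filtered air, number 5, also had the highest T cell mean, and ozone mice 5 and 6 were the top pair in both measures. Filtered-air mouse 6 was high in T cell markers and not in the members. The 8 markers of plasmacytoid dendritic cells, which are specialised producers of type I interferon, had means between -0.065 and 0.069 in filtered air, highest in mouse 4, and between -0.11 and -0.015 after ozone, highest in mouse 5. That list includes Bst2, itself a member. The conventional dendritic cell markers were highest in filtered-air mouse 5 (0.17) and ozone mouse 6 (0.076). In the ozone group mouse 6 was also the highest for endothelial (0.28), fibroblast (0.21), neutrophil (0.20) and epithelial markers (0.038), and mouse 5 for monocyte (0.069) and natural killer cell markers (0.032). In filtered air these lists were highest in mouse 4, except the endothelial markers, which were highest in mouse 3 (0.36). Other lists went another way in the ozone group. B cell markers were highest in mouse 4 (-0.069) and lowest in mouse 5 (-0.43). Alveolar macrophage markers were highest in mouse 1 (0.15) and lowest in mouse 6 (-0.035), and erythroid markers were highest in mouse 1 (0.37). The part of other cells in the covariation was not tested.

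**Figure D4:**
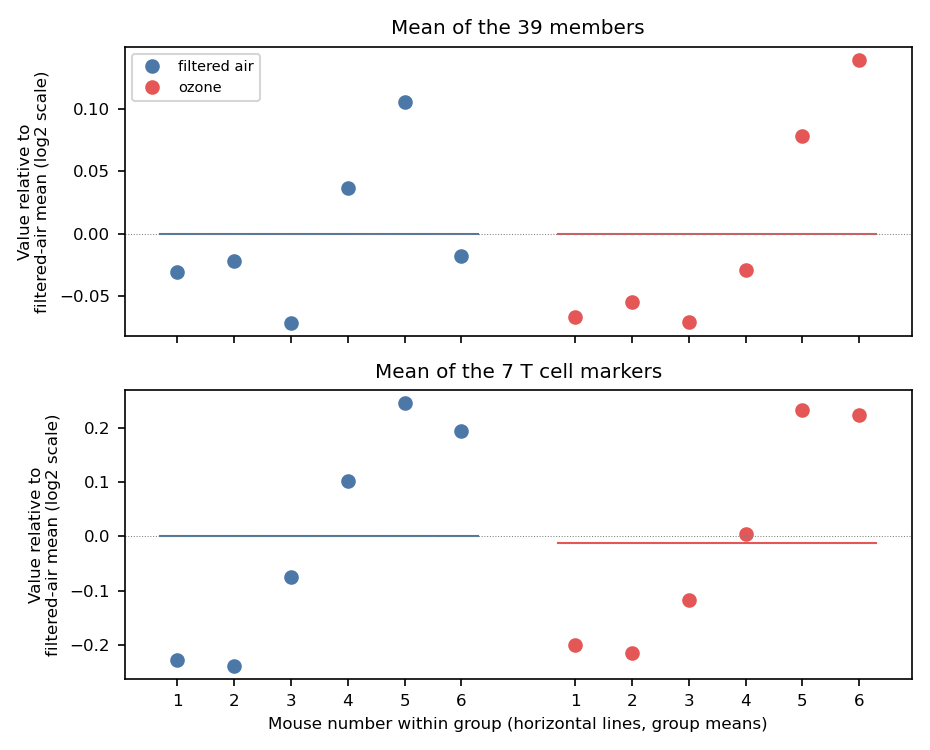
Mean of the 39 members (top) and of 7 T cell markers (bottom) in each mouse, on the variance-stabilized log2 scale relative to the filtered-air mean; horizontal lines are group means. Filtered-air mouse 5 and ozone mice 5 and 6 are the highest of their groups in both panels.

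The covariation was uneven across roles. The 12 RNA-directed effectors had a mean r among themselves of 0.53 in filtered air and 0.64 after ozone, and these include the pairs Ifit3 with Ifit3b and Oas1a with Oas1g, which share over 50% of the stretches of the first gene. The 7 other antiviral effectors had 0.30 and 0.62. The 4 guanylate-binding proteins had -0.043 and 0.49 among themselves, and 0.14 and 0.10 with the other members. The 5 nucleic acid sensors had 0.14 and 0.060, the 4 transcription factors 0.027 and 0.45, and the 5 other interferon-induced genes 0.058 and 0.18. Isg15 and Usp18, a single pair, had an r of 0.023 and 0.77.

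Of the 39 members 32 had a positive mean r with the other 38 members in both groups. Irf7 had the highest value over both groups, 0.51 in filtered air and 0.59 after ozone. It was followed by Ifit2 (0.50 and 0.54), Ifit3 (0.45 and 0.59), Oas3 (0.42 and 0.60) and Rsad2 (0.47 and 0.54). Isg15 had the highest mean r in filtered air, 0.51, and 0.43 after ozone. The other 7 members were Irf1, Bst2, Gbp3, Gbp2, Gbp7, Ifi204 and Trim30a, each with a negative mean r in 1 group. Irf1 had -0.17 in filtered air and 0.58 after ozone, and Ifi204 had 0.29 and -0.27. With 6 mice a group, the difference between groups for a single gene was not tested. For the 19 members with ISRE letters in a promoter window the median of this mean r was 0.31 in filtered air and 0.38 after ozone, and for the 11 matched members without them it was 0.37 and 0.54.

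**Figure D5:**
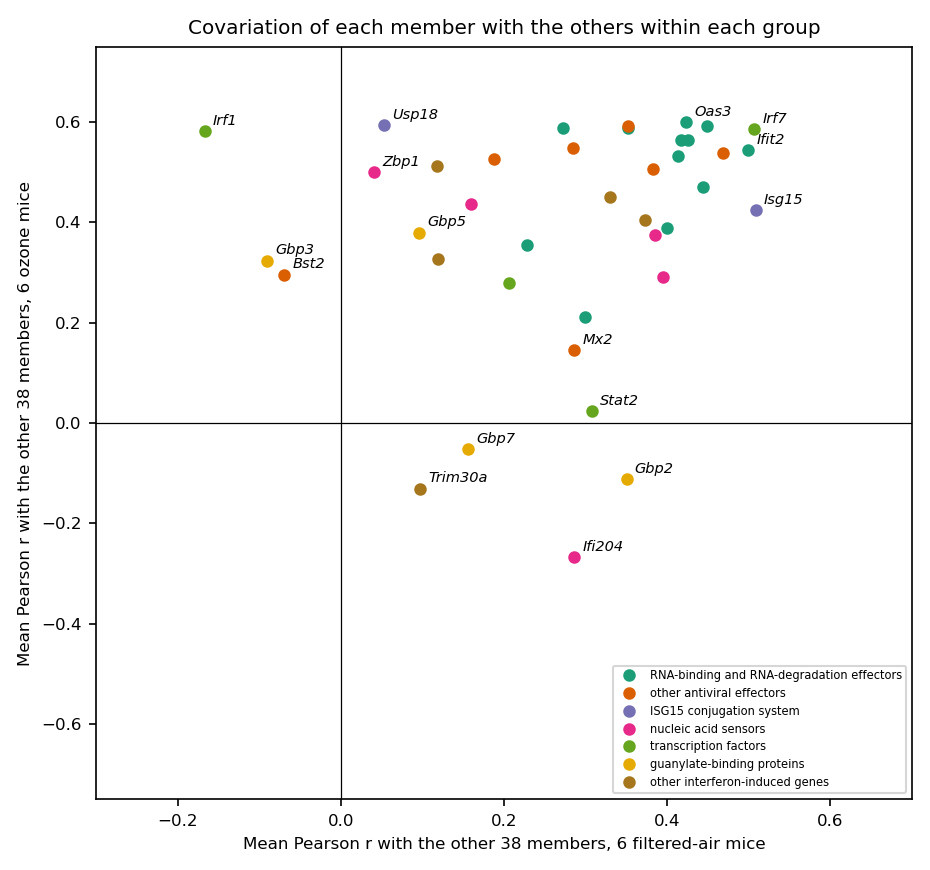
Mean Pearson r of each member with the other 38 members over the 6 filtered-air mice (horizontal axis) and the 6 ozone mice (vertical axis), coloured by role. Most members lie in the upper right, and Irf1 (-0.17, 0.58) and Ifi204 (0.29, -0.27) lie apart.

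Other genes of the interferon pathway were counted from lists. Of 12 interferon genes, 9 (6 interferon alpha genes, Ifnl2, Ifnl3 and Ifne) had the same value in all 12 mice. Ifnb1 lay above the no-read value in 5 of 12 mice and was not tested. The 2 tested ligands, Ifng (-0.088, SE 0.046) and Ifnk (0.070, SE 0.039), did not pass. Of 6 receptor chains 0 passed, and the smallest p-value was that of Ifngr1 (-0.12, SE 0.060, limma's adjusted p = 0.334). Of 5 signal transducers 1 passed, as lower, beside 4.25% of all genes that passed and 1.84% that passed as lower. Stat3, which carries signals of interleukins 6 and 10, fell by 0.17 (SE 0.045, limma's adjusted p = 0.0484), and leaving out 1 mouse at a time ended this call in 11 of 12 fits.

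Of 14 genes that lead to interferon production, 10 lay above 0 and 4 below, and 2 passed, both lower, beside 4.25% of all genes that passed and 1.84% that passed as lower. Trim25, the ubiquitin ligase that activates RIG-I, fell by 0.22 (SE 0.054, limma's adjusted p = 0.0350), and Myd88, the adaptor of Toll-like receptors, fell by 0.15 (SE 0.039, limma's adjusted p = 0.0460). Leaving out single mice ended these calls in 8 and 10 of 12 fits. Of 8 inhibitors 0 passed, with the smallest p-value for the phosphatase Ptpn1 (-0.18, SE 0.063, limma's adjusted p = 0.140).

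A list of other type I interferon-induced genes held 43 tested genes that are no members. Of these 19 lay above 0 and 24 below, with a median of -0.047, and 5 passed, beside 4.25% of all genes. Lgals3bp, a secreted glycoprotein, rose by 0.17 (SE 0.038, limma's adjusted p = 0.0177) and passed in each of 12 fits with a single mouse removed. Tor3a rose by 0.19 (SE 0.043, limma's adjusted p = 0.0213) and Ifi27l2a by 0.17 (SE 0.040, limma's adjusted p = 0.0277), with the call lost in 4 and 7 of those fits. Ifi207 fell by 0.28 (SE 0.072, limma's adjusted p = 0.0414), with the call lost in 9 of them, and Trim25, already given, is in this list too. Of 23 interferon gamma-induced genes 9 lay above 0 and 14 below, and 1 passed, a share close to the 4.25% of all genes. That gene, the chemokine Cxcl9, rose by 0.56 (SE 0.13, limma's adjusted p = 0.0210), and it missed the threshold on removal of any one of 3 mice (number 1 of filtered air, numbers 3 and 5 of ozone). Its relative Cxcl10 had a difference of 0.065 (SE 0.14). After quantile normalization, and in each flow-sort batch alone, 0 of these 8 passing pathway genes kept the call. With a variance trend the call was lost for Stat3 (adjusted p 0.0715), Trim25 (0.0566), Myd88 (0.0690), Ifi207 (0.0628) and Cxcl9 (0.0616). For Lgals3bp the adjusted p was 0.0991 after quantile normalization, 0.0948 in batch 1 and 0.620 in batch 2, and for Cxcl9 0.0767, 0.0771 and 0.393.

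The listed genes that are no members also varied with the mean of the 39 members to different degrees. A positive r in both groups was found for 25 of the 43 other type I interferon-induced genes (58.1%) and for 12 of the 23 interferon gamma-induced genes (52.2%), against 28.8% of 19594 genes that are no members. It was found for 3 of 5 signal transducers, 3 of 8 inhibitors, 1 of 2 ligands, 3 of 14 genes leading to interferon production and 1 of 6 receptor chains. An r above 0.7 in both groups was found for Phf11b, Ifi211 and Helz2 among the type I list and for Cxcl9 among the interferon gamma list. In all genes that are no members, 1.16% reached it. Ifi211 shares sequence with the member Ifi204.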

How the data were processed

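RNA of flow-sorted alveolar macrophages of 12 mice was analysed from 1 deposited table of log2-scale values with 1 column per mouse, all matched by title. The name of the deposited file describes its log2-scale values as VST-normalized (variance-stabilized) and batch-corrected. The submitters' processing notes name cutadapt, STAR 2.7.7a, Salmon 1.5.2, DESeq2 1.26.0, R 3.6.0, limma 3.42.2 and the mm10 build, without roles; the annotation, the use of strand and the handling of shared reads are not given in the sources used here. The filtered-air mean and the difference of the batch means were checked to be 0 in every gene within rounding. Total depth is unknown, which leaves the counting error of single values unknown.

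Genes were kept where at least 6 of 12 mice lay above the lowest value shared by mice of a flow-sort batch. Groups were compared with limma 3.58.1 in R 4.3.3 with batch as covariate and without variance trend, and the fit was tested on simulated data. Sequence was read with Python 3.11.15. Positions and transcripts came from GENCODE M21, and promoters from RefSeq.

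Members, lists and tests were chosen with earlier results of these data known. The rule for values by mouse took, in each role, the member with the smallest p-value and that with the largest SD, and over all members the 3 largest rises and the 3 largest falls; differences were given for all members. Of each pathway list the gene with the smallest p-value and the passing genes were named; Ifnk, Cxcl10, the errors of further members and the genes named for their correlations were added after their values were seen. Alternatives were other filters, variance priors, normalizations and covariates, each batch alone, a replicate block and leaving out each mouse. Results of some listed genes are not reported here.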

Additional observations from a re-analysis of the deposited data

Results flagged for a closer look

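Of 30 combinations of group and measure examined (14 members and the member mean, in 2 groups), 1 held a mouse far from the rest of its group. Filtered-air mouse 5 had an Rsad2 value of 0.35, and its gap to the next mouse was 0.679 of the range of the group, above Dixon's critical value for 6 samples. Chance gives such a gap in about 1 in 20 groups. The same mouse was the highest filtered-air mouse in 20 of the 39 members and in the mean of 7 T cell markers (0.25). Without it the Rsad2 difference was 0.12, still short of the threshold.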

How the results depend on the processing

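Of the 39 members 0 passed under the main analysis and under every alternative except the replicate block. The count over all genes, 834, was 171 after quantile normalization, 90 in flow-sort batch 1 alone and 0 in batch 2 alone, where 1800 genes had an unadjusted p under 0.05; the batches alone use fewer mice, and the cause under quantile normalization was not tested. Without single mice that count ranged from 538 (without filtered-air mouse 1) to 751. The median difference of the members lay between -0.040 (without ozone mouse 6) and 0.035 (without filtered-air mouse 5), and 26 of 39 members lay below 0 in the former fit and 13 in the latter. The interaction test gave 0 members under each alternative run.

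The mean pairwise correlation of the members without single mice ranged from 0.14 to 0.31 in filtered air and from 0.32 to 0.46 after ozone. With Spearman's rho it was 0.34 after ozone. Of 322 results for the 14 members given by mouse, 302 kept their direction and stayed short of the threshold, and 19 changed sign without passing. Those were Oasl1 in batch 2 (0.026), Rsad2 in batch 1 (-0.089), Usp18 in batch 2 (0.018), Ifi44 in batch 2 (-0.061) and Dhx58 in batch 1 (-0.099) and with RNA integrity as a covariate (-0.0058); the others arose without single mice. Over those fits Dhx58 ranged from -0.040 to 0.059, Ifi44 from -0.034 to 0.052, Oasl1 from -0.091 to 0.047, Rsad2 from -0.061 to 0.12 and Stat2 from -0.076 to 0.061. The cause was not tested. Of 184 results for the 8 passing pathway genes, 91 lost the call in the same direction and 0 changed sign.

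Both groups carry the numbers 1 to 6, given to different animals. For mice sharing a number, deviations from the group mean correlated between -0.0026 and 0.28, above 0.1 in 4 of 6 pairs, and 2 of 6 mice correlated best with their own number, so the samples were not treated as paired. With the replicate block 853 genes and 1 member passed; the member was Gbp5, with limma's adjusted p of 0.0398 at the same difference of 0.23. Of the 8 pathway genes, Stat3 (adjusted p 0.0646), Trim25 (0.0771), Myd88 (0.110) and Ifi27l2a (0.0612) lost the call with the block.

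What the table can show is limited, since abundance was not kept and differences of genes with few reads are compressed. Total depth is unknown.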
